A study of Mus musculus with 6 samples.

Results

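The genes described here are the main interstitial collagens of the kidney and their close partners: Col1a1, Col1a2, Col3a1, Col5a1, Col5a2, Col6a1, Col6a2, Col6a3, Fn1 and Sparc. They were taken by name from the 23396 genes of the deposited table, and all 10 were found and passed the filter on low counts that left 14354 genes for testing. RNA came from 6 male mice at 6 months of age, 1 right kidney each. Of these, 3 were labelled wild type, of strain C57BL/6N. The other 3 were labelled homozygous for a Far2 knockout, with C57BL/6N-Far2tm2a(KOMP)Wtsi/2J as their strain. Far2 encodes a fatty acyl-CoA reductase, which makes fatty alcohols. The labels name neither the cells in which the allele acts nor the exons it affects.

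Interstitial collagens are secreted mainly by fibroblasts and pericytes. Type I, type III and type V chains wind into triple helices that assemble into banded fibrils, in which type V collagen starts the fibril and limits its width. Type VI collagen forms a separate network of beaded microfilaments close to cells. Fibronectin, encoded by Fn1, is the adhesive glycoprotein on which new fibrils are laid down, and Sparc is a secreted collagen-binding protein that takes part in fibril assembly. In kidney these genes are best known for their rise in fibrosis.

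In the libraries labelled knockout, 9 of the 10 genes had a lower fitted level than in wild type, and Col5a2 had a higher one. Of all tested genes, 51.7% were below 0. The median log2 fold change of the 10 genes was −0.29, with a range from −0.83 for Col1a1 to 0.27 for Col5a2, and the median of all tested genes was −0.0066. None passed edgeR (quasi-likelihood test) at a Benjamini-Hochberg adjusted p of 0.05 (0 of 14354 genes did, 0.0%), nor did any pass DESeq2 (0.0906% of 14352 genes). At an unadjusted p under 0.05 edgeR had 6 of the 10 lower, against 5.14% of all tested genes, and 0 higher, against 3.17%. These were Col1a1, Col1a2, Col5a1, Col6a2, Fn1 and Sparc. DESeq2 had 5 of the 10 lower at an unadjusted p under 0.05, against 3.22%, and limma on log2(FPKM + 1) had 3, against 3.62%. With limma-voom the number was 6, against 4.73%, and with library weights added 7, against 5.02%. Other scalings and filters in edgeR each gave 6, against 4.72% to 5.91%. After a smooth trend on transcript GC and length was taken out, 3 of the 10 were lower at that p, against 4.54%, and 1 when wild-type library 0 was also left out, against 5.54%. The groups did not overlap for 5 genes that were lower, against 6.96% of tested genes, and for 0 that were higher, against 7.12%. Genes of this kind vary together, so these counts are not independent results.

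The comparison asked whether the matrix genes differed between the genotypes. The labels call the mice biological replicates. Each group has libraries numbered 0, 1 and 2 in the deposited table, and these numbers match no named mouse. The libraries held from 15261362 to 20631158 fragments assigned to genes, and the biological coefficient of variation was 10.1%. Far2 itself had 22 to 40 fragments per wild-type library and 19 to 31 per library labelled knockout (log2 fold change −0.23, SE 0.24; edgeR, Benjamini-Hochberg adjusted p = 0.781). The gene-wide fragments of Far2 overlapped between the groups and do not check the genotype labels, on which every direction below rests. Markers of proximal tubule were abundant in each library, with a summed level of 12798 to 15819 CPM (a gene's fragments relative to the TMM-scaled library size), while the adrenal gene Cyp11b1 was at 0 in all 6. Wild-type library 0 stood apart: Havcr1, a gene switched on in damaged proximal tubule, was at 21.5 CPM there and at 0.617 to 0.916 CPM in the other 5 libraries. The results that rest on that library are therefore given with and without it. Library weights from limma-voom over the tested genes were lowest for wild-type library 1 (0.672), with wild-type library 0 next (0.784).

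The share of all fragments that fell in the 10 genes was small. It was 0.0399%, 0.0298% and 0.0321% in wild-type libraries 0, 1 and 2, and 0.0293%, 0.0254% and 0.0280% in knockout libraries 0, 1 and 2. Wild type averaged 0.0339 ± 0.00531% (SD, n = 3) and knockout 0.0275 ± 0.00202%. The 3 knockout shares all lay below the 3 wild-type shares, but knockout library 0 and wild-type library 1 were close together. In bulk kidney RNA, fewer cells of a type and less RNA per cell cannot be told apart.

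Levels between genes were compared per length, as FPKM, averaged over the 6 libraries. FPKM relates a gene's fragments to transcript length and library size. From library to library, the deposited FPKM did not move in the same proportion to CPM for each gene. More than length and library size thus enters it, and what else does was not tested. Sparc was the highest, at 27.1 FPKM. Col1a2 followed at 7.54 FPKM, Col3a1 at 6.86, Col6a1 at 3.96, Col5a2 at 3.62, Col6a3 at 3.31, Fn1 at 2.74, Col6a2 at 1.73, Col5a1 at 1.14 and Col1a1 at 1.03. Sparc was above Col1a2 in all 6 libraries, Col3a1 above Col6a1 in all 6, Fn1 above Col6a2 in all 6, and Col6a2 above Col5a1 in all 6. Other neighbours in this order were not separated in each library: Col6a1 was above Col5a2 in 3 of 6, and Col5a2 above Col6a3 in 4 of 6. Col1a2 was above Col3a1, Col6a3 above Fn1, and Col5a1 above Col1a1 in 5 of 6.

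**Figure D1:**
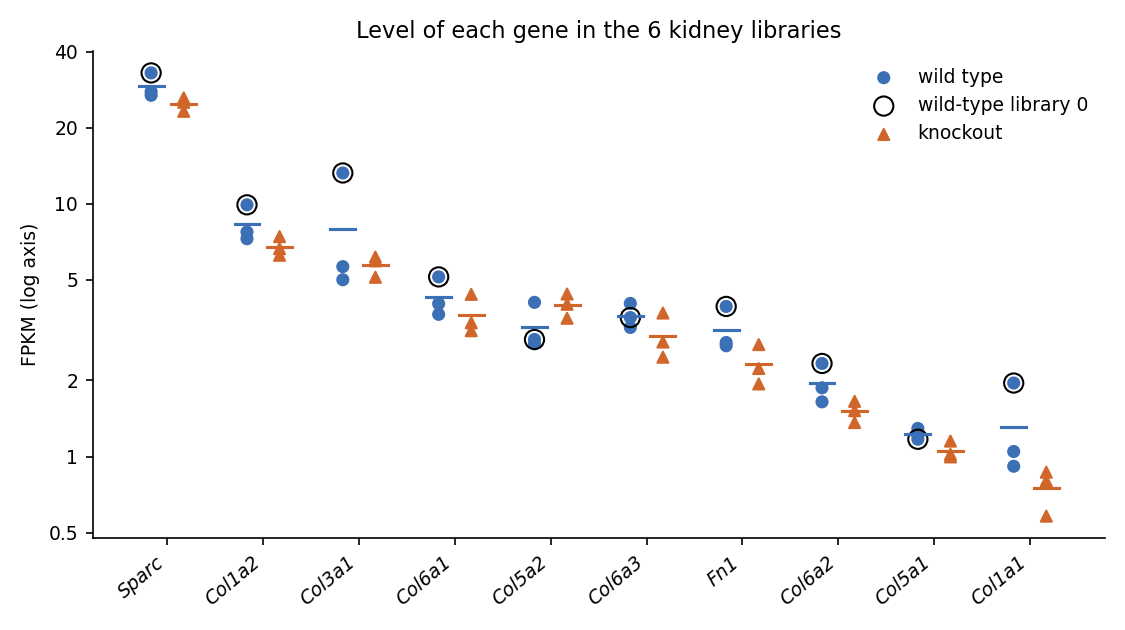
Level of each gene in each library in FPKM on a log axis, ordered by the mean over the 6 libraries, with a line at each group's mean and a ring around wild-type library 0. Sparc (27.1 FPKM on average) is above all other genes, and the ringed point stands clear of the other 5 libraries for Col3a1 and Col1a1.

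Type I collagen is the main fibril collagen of most connective tissue. Col1a1, its alpha-1 chain, lies on the plus strand of chromosome 11 (mm10, 94936270 to 94951856). It was measured at 10.2, 5.98 and 5.26 CPM in wild-type libraries 0, 1 and 2 and at 3.02, 4.39 and 4.74 CPM in knockout libraries 0, 1 and 2. The groups did not overlap, and wild-type library 0 was far above the rest. These levels rest on few fragments, 206, 126 and 81 for wild type against 53, 66 and 88 for knockout. Wild type averaged 7.15 ± 2.68 CPM (SD, n = 3) and knockout 4.05 ± 0.911 CPM. The fitted log2 fold change was −0.83 (SE 0.27, 95% interval −1.43 to −0.23). By edgeR its unadjusted p was 0.0117 and its Benjamini-Hochberg adjusted p 0.599. Without wild-type library 0 the log2 fold change of Col1a1 was −0.48, with an unadjusted p of 0.0485 by edgeR.

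Col1a2, the alpha-2 chain of type I collagen, lies on the plus strand of chromosome 6 (4505697 to 4541543). Its level was 53.6, 41.8 and 45.7 CPM in wild type and 40.7, 35.9 and 37.5 CPM in knockout. Each knockout library was below each wild-type library in CPM by a narrow margin, and in FPKM the groups overlapped. Its log2 fold change was −0.31 (SE 0.10, 95% interval −0.53 to −0.079), with an unadjusted p of 0.0134 and an adjusted p of 0.599 by edgeR. Without wild-type library 0 it was −0.20, with an unadjusted p of 0.0562.

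Type III collagen, a homotrimer of the Col3a1 product, mixes with type I in the fibrils of soft organs. Col3a1 lies on the plus strand of chromosome 1 (45311538 to 45349706). It was at 85.7, 34.1 and 39.8 CPM in wild type and at 40.8, 34.9 and 39.7 CPM in knockout. Wild-type library 0 was 2.32 times the mean of the other wild-type libraries, and the other 5 libraries lay within 34.1 to 40.8 CPM with the groups interleaved. By edgeR the log2 fold change was −0.47 (SE 0.29, 95% interval −1.11 to 0.17; edgeR adjusted p = 0.642) with all libraries and 0.062 (SE 0.11, unadjusted p = 0.571) without wild-type library 0. The direction of Col3a1 therefore rested on 1 library. Without wild-type library 1, the lowest of its group, the value was −0.71.

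Type V collagen sets the number and width of type I fibrils. Col5a1, its alpha-1 chain, lies on the plus strand of chromosome 2 (27886425 to 28039510). It was at 11.6, 13.6 and 13.0 CPM in wild type and at 11.5, 10.2 and 10.4 CPM in knockout. Knockout library 0 lay just under wild-type library 0, and the other knockout libraries were lower than all others. Col5a1 had a log2 fold change of −0.25 (SE 0.10, 95% interval −0.48 to −0.014), with an unadjusted p of 0.0401 and an adjusted p of 0.599 by edgeR. With the trend on transcript GC and length taken out it was −0.13 (limma, unadjusted p = 0.189). Leaving out wild-type library 0 gave −0.31, with an unadjusted p of 0.0169, since that library had the lowest Col5a1 of its group.

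Col5a2, the alpha-2 chain of type V collagen, was the exception in direction. It lies on the minus strand of chromosome 1 (45374331 to 45503282), where 24624 bases separate it from Col3a1, which is transcribed towards it. Its level was 21.7, 21.8 and 33.0 CPM in wild type and 30.9, 34.2 and 27.0 CPM in knockout. Wild-type library 2 was within the knockout range, so the groups overlapped. Col5a2 had a log2 fold change of 0.27 (SE 0.16, 95% interval −0.089 to 0.63; edgeR adjusted p = 0.634). Without wild-type library 2 the knockout libraries were all above wild type and the log2 fold change was 0.49 (unadjusted p = 0.0020), and without wild-type library 0 or 1 it was 0.17 (unadjusted p = 0.343 and 0.336). Its 3 highest values were in the 3 libraries with the fewest fragments, which was so for 3.36% of tested genes. The part of library size in the result was not tested.

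Type VI collagen combines the products of Col6a1, Col6a2 and Col6a3 in equal parts. Col6a1 and Col6a2 are neighbours on the minus strand of chromosome 10 (76708792 to 76726044 and 76595756 to 76623404), 85387 bases apart, and Col6a3 lies on the minus strand of chromosome 1 (90766860 to 90843971). Col6a1 was at 25.9, 19.6 and 22.2 CPM in wild type and at 22.5, 16.2 and 17.5 CPM in knockout. The groups overlapped, with knockout library 0 inside the wild-type range. Col6a2 was at 11.3, 8.63 and 9.93 CPM in wild type and at 8.08, 6.78 and 7.55 CPM in knockout, without overlap in CPM and with overlap in FPKM. Col6a3 was at 42.0, 40.4 and 52.8 CPM in wild type and at 44.9, 31.4 and 35.5 CPM in knockout, with overlap. Wild-type library 0 was the highest library for Col6a1 and Col6a2 but not for Col6a3. The log2 fold changes were −0.27 (SE 0.14) for Col6a1, −0.41 (SE 0.13) for Col6a2 and −0.27 (SE 0.14) for Col6a3. By edgeR the unadjusted p was 0.0862, 0.0122 and 0.0888, and the adjusted p was 0.607, 0.599 and 0.610. None of the 3 chains passed after adjustment, and a difference between their steps was tested only as the FPKM ratios given further on. Without wild-type library 0 the log2 fold change was −0.15 for Col6a1 (unadjusted p = 0.299 by edgeR), −0.30 for Col6a2 (unadjusted p = 0.0525) and −0.32 for Col6a3. Col6a1 and Col6a3 also moved with other libraries, to −0.42 for both without knockout library 0, to −0.18 and −0.16 without knockout library 1, and Col6a3 to −0.14 without wild-type library 2.

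Fn1 lies on the minus strand of chromosome 1 (71585473 to 71653234). It was at 40.2, 28.7 and 31.3 CPM in wild type and at 23.2, 20.7 and 29.1 CPM in knockout. Knockout library 2 reached slightly above wild-type library 1, and the other knockout libraries were below all wild-type libraries. Fn1 had a log2 fold change of −0.45 (SE 0.15, 95% interval −0.79 to −0.12), with an unadjusted p of 0.0138 and an adjusted p of 0.599 by edgeR. It was −0.30 without wild-type library 0 (unadjusted p = 0.0591).

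Sparc lies on the minus strand of chromosome 11 (55394501 to 55420080). It was at 87.3, 76.6 and 77.1 CPM in wild type and at 68.4, 62.5 and 72.0 CPM in knockout. The groups did not overlap and the spread within each was small, with wild type at 80.3 ± 6.06 CPM (SD, n = 3) and knockout at 67.7 ± 4.79 CPM. Sparc had a log2 fold change of −0.25 (SE 0.080, 95% interval −0.43 to −0.069), with an unadjusted p of 0.0118 and an adjusted p of 0.599 by edgeR. Without wild-type library 0 it was −0.18 (unadjusted p = 0.0490). No other gene of the table overlapped the locus of any of the 10 genes.

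**Figure D2:**
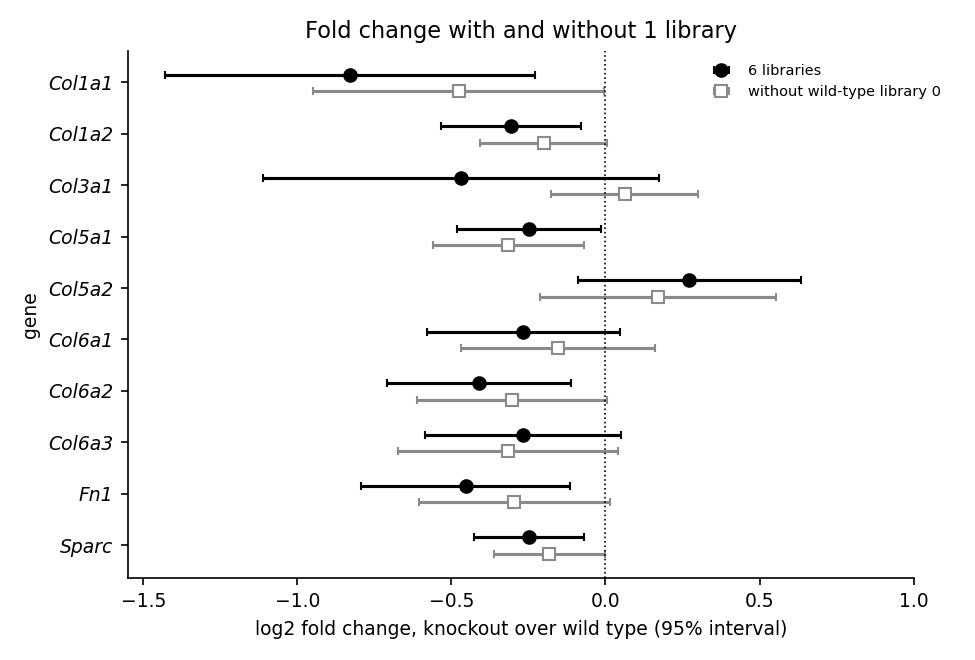
Fitted log2 fold change of each gene, knockout over wild type, with its 95% interval, for all 6 libraries (filled) and without wild-type library 0 (open). Col3a1 moves from −0.47 to 0.062, Col1a1 from −0.83 to −0.48, and Col5a2 is the gene to the right of 0 in both.

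The authors' deposited table gave another set of calls. In it Col1a1 (log2 fold change −0.80, q = 0.0191) and Col3a1 (log2 fold change −0.47, q = 0.0457) passed a q of 0.05, so 2 of the 10 genes were called lower, against 0.492% of 13404 genes in that table. None of the 10 was called higher, against 0.164%. Fn1 had a q of 0.0758, Col1a2 0.446 and Sparc 0.675 in the authors' deposited table, and Col5a2 had a log2 fold change of 0.29 with a q of 0.536. Col1a1 and Col3a1, the pair called there, were also the genes with the largest excess in wild-type library 0.

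Wild-type library 0 was the highest of the 6 libraries for 7 of the 10 genes, against 17.1% of tested genes. Its level divided by the mean of the other wild-type libraries was 2.32 for Col3a1, 1.82 for Col1a1, 1.34 for Fn1, 1.24 for Col6a1, 1.23 for Col1a2, 1.22 for Col6a2 and 1.14 for Sparc. It was 0.901 for Col6a3, 0.868 for Col5a1 and 0.791 for Col5a2. The excess was thus steepest for Col3a1 and Col1a1, whereas Col1a2, the other type I chain, was near Col6a1 and Col6a2. No excess was seen for Col6a3, Col5a1 or Col5a2. At the other end, knockout library 1 was the lowest library for 7 of the 10 genes, against 22.0% of tested genes.

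Markers of several cell types moved with the excess in wild-type library 0. The summed level of 7 fibroblast and pericyte markers was 217, 176 and 176 CPM in wild type and 174, 151 and 154 CPM in knockout. All 7 had a fitted value below 0, with wild-type library 0 included. So did all tested macrophage (7), tubular injury (4), smooth muscle (3), podocyte (3) and T cell (3) markers. Fewer did among markers of proximal tubule (1 of 5), endothelium (1 of 4), fat (0 of 5) and urothelium (2 of 4). Dcn, a small proteoglycan that binds fibrils of type I collagen, was at 74.2 CPM in wild-type library 0 and at 37.4 to 44.7 CPM elsewhere. Pdgfra, the growth factor receptor of fibroblasts, was at 88.6 CPM there and at 71.6 to 86.0 CPM elsewhere. Of the 7 fibroblast and pericyte markers, 5 were highest in wild-type library 0. Pdgfrb, the receptor of pericytes, was not: it was at 42.2 CPM there, with wild-type libraries 1 and 2 at 49.8 and 46.4 CPM. Macrophage markers summed to 228 CPM in wild-type library 0 and to 99.8 to 133 CPM in the others. Much of this was Lyz2, at 83.7 CPM against 9.96 to 22.9 CPM, while Csf1r was at 61.2 CPM there, with wild-type libraries 1 and 2 at 60.9 and 63.7 CPM. The 4 tested tubular injury markers were all highest there, with the list of 6 at 328 CPM against 168 to 199 CPM. None of the 7 fibroblast, 7 macrophage, 4 T cell or 6 tubular injury markers was at 0 in all libraries. The smooth muscle and endothelial sums were not raised in that library, at 113 and 287 CPM, within the ranges of 94.8 to 128 and 285 to 318 CPM over all libraries. Fat markers stood out in another library, at 35.6 CPM in knockout library 2 against 1.61 to 7.72 CPM elsewhere. The part of these cells in the collagen values was not tested.

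With wild-type library 0 left out, 8 of the 10 genes kept a value below 0 and their median was −0.25, against 0.00044 for all tested genes. None passed edgeR after Benjamini-Hochberg adjustment (0.0% of 14453 genes), and 3 were lower at an unadjusted p under 0.05, Col1a1, Col5a1 and Sparc, against 7.06% of tested genes. The groups of 2 and 3 libraries did not overlap for 5 genes that were lower, against 15.4%, and for 0 that were higher, against 14.2%. Leaving out knockout library 1 gave 2 genes lower at an unadjusted p under 0.05, against 2.35% of tested genes. The number was 7 when wild-type library 1 was omitted (3.29% of tested genes) and 5 when wild-type library 2 was omitted (4.72%). Omitting knockout library 0 gave 7 (4.95%) and omitting knockout library 2 gave 5 (4.63%). In the fibroblast and pericyte sum the wild-type libraries 1 and 2 were also above the 3 knockout libraries by a narrow margin at the nearest pair.

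**Figure D3:**
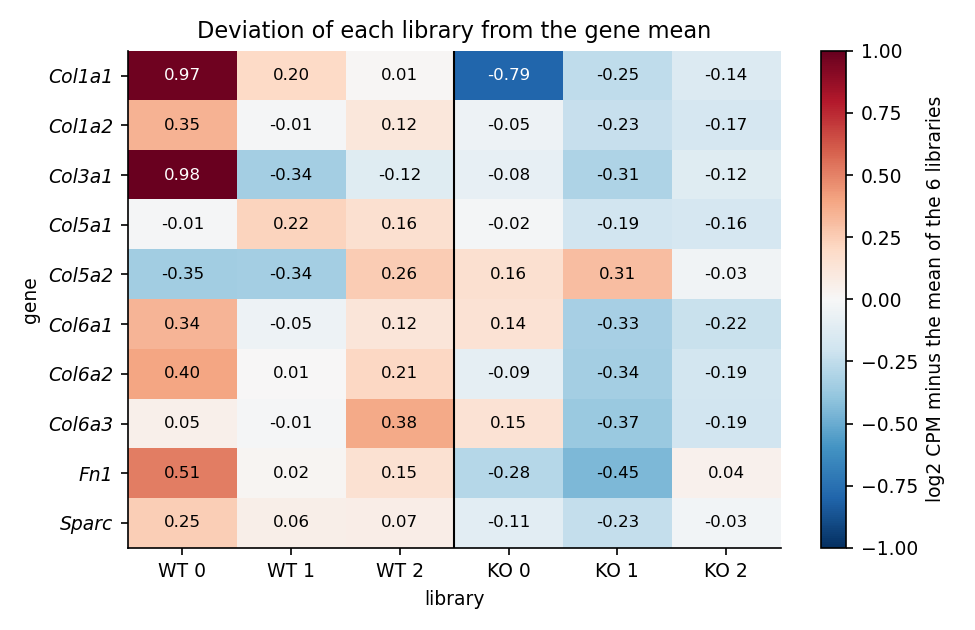
Deviation of each gene in each library from its mean over the 6 libraries, in log2 CPM, with 1 row for each gene and 1 column for each library. Wild-type library 0 is high for 7 genes and most so for Col3a1 (0.98) and Col1a1 (0.97), and Col5a2 is lowest in wild-type libraries 0 (−0.35) and 1 (−0.34).

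Most of the genes followed each other across libraries, and Col5a2 did so least. Over the 6 libraries, which mix both genotypes and share the same scaling, Pearson's r of log2 CPM was positive for 35 of the 36 pairs without Col5a2, with a median of 0.74 and a range from −0.067 to 0.99. It was positive for 0 of the 9 pairs with Col5a2, with a median of −0.51. Without wild-type library 0 it was positive for 32 of the 36 pairs, with a median of 0.62, and for 3 of the 9 pairs with Col5a2, with a median of −0.15. These are descriptions of few libraries and carry no p. Col1a2 and Col6a2 were the closest pair (r = 0.99, and 0.99 without wild-type library 0), followed by Fn1 and Sparc (0.98, and 0.95 without it). Col1a1 and Col3a1 had r = 0.73, which became −0.55 without wild-type library 0, so their likeness rested on that library.

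The ratio of 2 chains within a library does not depend on how libraries are scaled, though any adjustment by gene in the deposited FPKM stays in it. Of 9 ratios of FPKM compared by an exact two-sided permutation test, for which 3 libraries against 3 can give no p below 0.10, none could pass 0.05. Col5a1 over Col5a2, the chains of type V collagen, was 0.403, 0.462 and 0.297 in wild type and 0.287, 0.227 and 0.289 in knockout. The groups did not overlap, and the mean log2 ratio of knockout minus wild type was −0.52 (exact permutation p = 0.10, adjusted p = 0.36). Col6a1 over Col6a2 was 2.20, 2.22 and 2.15 in wild type and 2.65, 2.31 and 2.23 in knockout (difference of the log2 ratio 0.13, exact permutation p = 0.10, adjusted p = 0.36). This difference was 0.050 without knockout library 0. It was the steadiest of the 9, with a coefficient of variation of 7.94% over all libraries, followed by Col6a3 over Col6a1 at 12.4%.

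The type I collagen protein is assembled from a pair of alpha-1 chains and a single alpha-2 chain. That is a proportion of protein chains, whereas FPKM measures RNA, and the RNA was not in that proportion. The deposited Col1a1 locus ended at 94951856, against 94953042 in the GENCODE annotation, and the part of this in the ratio was not tested. Col1a2 was 5.07 to 12.8 times as high as Col1a1 in FPKM. The ratio of Col1a1 to Col1a2 was 0.197, 0.144 and 0.118 in wild type and 0.0783, 0.128 and 0.130 in knockout, with overlap (exact permutation p = 0.30, adjusted p = 0.45). It was highest in wild-type library 0 and lowest in knockout library 0. Relative to Col1a1, Col3a1 was 4.78 to 6.78 in wild type and 6.39 to 10.6 in knockout, Fn1 2.01 to 3.09 and 2.42 to 3.84, and Sparc 16.9 to 29.4 and 29.0 to 43.4. Their adjusted p values from the exact permutation test were 0.36, 0.514 and 0.36. Col5a2 over Col1a1 was 1.49 to 4.45 in wild type and 4.07 to 6.89 in knockout, with overlap. Its difference of the log2 ratio, 1.04, was the largest of the 9 (exact permutation p = 0.20, adjusted p = 0.36), and was 0.64 without wild-type library 0. Col3a1 over Col4a1, a basement membrane collagen, was 0.351 in wild-type library 0 and 0.146 to 0.183 in the other 5 libraries.

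**Figure D4:**
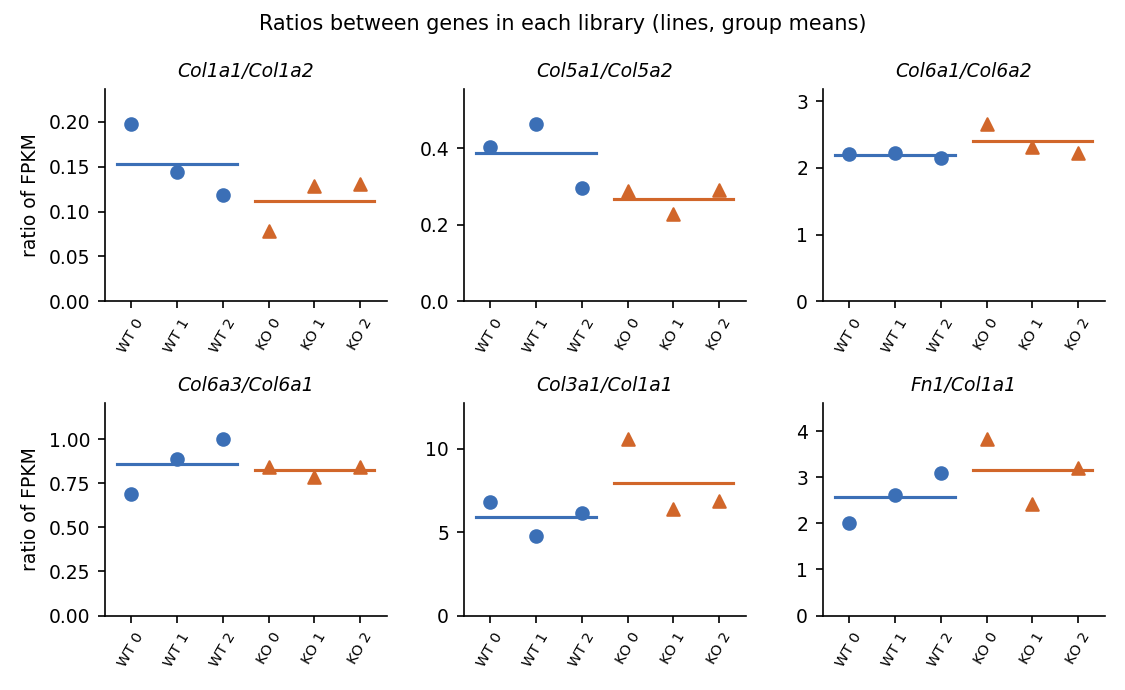
FPKM ratio of 6 gene pairs in each library (WT, wild type; KO, knockout) on linear axes from 0, with lines at the group means. Col6a1 over Col6a2 is held between 2.15 and 2.65, whereas Col1a1 over Col1a2 ranges from 0.0783 to 0.197 and Col5a1 over Col5a2 from 0.227 to 0.462.

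Sequences upstream of the start are shown for Col3a1, the gene with the steepest excess in wild-type library 0 (2.32 times the mean of the other wild-type libraries), and for Col5a1 and Col6a3, which had no excess there (0.868 and 0.901 times). Each is the 120 bases before the annotated start, 5′ to 3′ on the gene's strand, from RefSeq on GRCm38.p6. Capitals mark any match to the TATA box letters TATAAA, the CAAT box letters CCAAT or the Sp1 letters GGGCGG, searched on both strands.
Col3a1, chr1:45311418-45311537, plus strand: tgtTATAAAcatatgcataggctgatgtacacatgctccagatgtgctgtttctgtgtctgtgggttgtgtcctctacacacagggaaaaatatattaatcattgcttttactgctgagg
Col5a1, chr2:27886305-27886424, plus strand: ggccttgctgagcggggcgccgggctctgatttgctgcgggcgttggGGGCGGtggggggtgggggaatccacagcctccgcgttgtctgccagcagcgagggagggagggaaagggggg
Col6a3, chr1:90843972-90844091, minus strand: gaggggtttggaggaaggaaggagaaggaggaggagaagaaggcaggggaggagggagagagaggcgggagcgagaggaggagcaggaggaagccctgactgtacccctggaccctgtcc

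RefSeq promoter entries were matched for 7 of the 10 genes, and Col1a1, Col5a2 and Fn1 are named only. In the 250 bases before the start, GC content was 35.2% for Col3a1, 76.4% for Col5a1 and 57.2% for Col6a3, against a median of 52.4% over 32851 promoters. TATAAA was found in Col3a1, 117 bases before the start, and in 12.4% of all promoters. GGGCGG, on either strand, was found in Col5a1, Col1a2 and Col6a2 and in 32.7% of all, and CCAAT, found in Col1a2, in 33.8% of all. Col6a3, Col6a1 and Sparc held none of the 3 in this window. For Col1a2, Col6a1, Sparc and 1 entry of Col6a2, the 120 bases before the start overlapped an exon of the same gene in the GENCODE annotation. Those bases are therefore not wholly upstream of the gene. A match here is a string of letters and no measured site.

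Genes whose products fold, trim, bind or degrade collagen were then compared from lists chosen by function. None of their genes passed edgeR after Benjamini-Hochberg adjustment. Beside the counts that follow, 5.14% of all tested genes were lower and 3.17% higher at an unadjusted p under 0.05, and 51.7% were below 0. Of 18 tested genes of 19 for collagen folding and hydroxylation in the endoplasmic reticulum, 0 had an unadjusted p under 0.05 in either direction, 7 were below 0, and the median was 0.095, against −0.29 for the collagens themselves. By edgeR the smallest unadjusted p were those of Leprel2, a prolyl 3-hydroxylase (−0.25, SE 0.12, unadjusted p = 0.0639), Plod2, a lysyl hydroxylase (0.21, SE 0.11, unadjusted p = 0.0991), and P4hb, the beta subunit of prolyl 4-hydroxylase (0.14, SE 0.087, unadjusted p = 0.137). The folding list and the collagens thus had medians of opposite sign, except without knockout library 1, when the folding median was −0.013. Of 9 tested genes of 10 for removal of the propeptides, 1 was lower at an unadjusted p under 0.05 and 0 higher, with 5 below 0. By edgeR that gene was Bmp1, the procollagen C-proteinase (−0.38, SE 0.13, unadjusted p = 0.0188). The meprin genes Mep1b (0.25, SE 0.12, unadjusted p = 0.0658) and Mep1a (0.19, SE 0.096, unadjusted p = 0.0738) came next by edgeR. Without knockout library 1 the value was 0.096 for Plod2, 0.067 for P4hb and 0.12 for Mep1a. It was 0.12 for Plod2 without wild-type library 1 and 0.40 for Mep1b without wild-type library 2.

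Among 11 tested of 14 other interstitial collagens, 1 was lower and 1 higher at an unadjusted p under 0.05. Col8a1, a short-chain network collagen, had a mean of 16.3 ± 1.73 CPM (SD, n = 3) in knockout against 11.5 ± 1.36 CPM in wild type, with no overlap (log2 fold change 0.49, SE 0.12). Col12a1, a collagen on the fibril surface, had a mean of 16.0 ± 2.83 CPM in knockout against 22.4 ± 0.691 CPM in wild type, also without overlap (log2 fold change −0.48, SE 0.12). Col5a3, the third chain of type V collagen, had a log2 fold change of −0.28 (SE 0.21) on 46 to 105 fragments a library. The value for Col5a3 was −0.14 without wild-type library 1 and −0.46 without wild-type library 2. The median of the list, −0.034, had no stable sign: it became 0.017 when wild-type library 0 was left out, 0.036 when knockout library 0 was, and 0.060 after a trend on transcript GC and length was taken out.

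Of 14 tested receptor genes for collagen and fibronectin, from a list of 15, 7 were lower at an unadjusted p under 0.05 and 0 higher, 12 were below 0, and the median was −0.22. Ddr2, the fibroblast receptor for fibrillar collagen, had a log2 fold change of −0.40 (SE 0.10, edgeR unadjusted p = 0.0036). Antxr1, a receptor that binds collagen, had −0.57 (SE 0.16, unadjusted p = 0.0055) and Itga8, the mesenchymal integrin chain that binds fibronectin, −0.23 (SE 0.077, unadjusted p = 0.0131), by edgeR. All 11 matricellular genes were below 0, with a median of −0.32 and 4 at an unadjusted p under 0.05. The smallest p were those of Tgfbi (−0.80, SE 0.19), Sparcl1, a relative of Sparc (−0.38, SE 0.13), and Cyr61 (−0.38, SE 0.15). When wild-type library 2 was left out, Cyr61 was at −0.24. The groups overlapped for Sparcl1 and Cyr61 and not for Tgfbi. Without wild-type library 0 the medians were −0.19 for the receptors and −0.20 for the matricellular genes. In that fit 5 receptor and 2 matricellular genes were lower at an unadjusted p under 0.05, against 7.06% of tested genes. Of the matricellular genes 10 were then below 0, with Tgfbi at −0.64 and Sparcl1 at −0.27 (edgeR unadjusted p = 0.0554). Without wild-type library 1 the matricellular median was −0.48.

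Basement membranes hold the other main collagen network of the kidney. Of 15 genes tested, 12 were below 0, with a median of −0.12, and 2 were lower at an unadjusted p under 0.05: Nid1 (−0.22, SE 0.087) and Lama5 (−0.22, SE 0.095), the latter −0.099 without wild-type library 1. The groups did not overlap for 4 of the 15 that were lower, Nid1 and Lama5 among them, against 6.96% of tested genes. They did not overlap for 1 that was higher, against 7.12%. That gene was Col4a4, of the glomerular basement membrane (0.14, SE 0.066), which was at 0.11 without wild-type library 0. For breakdown of collagen, 6 of 7 tested genes of 9 were below 0 and 2 were lower at an unadjusted p under 0.05. Timp2, an inhibitor of metalloproteinases, had −0.29 (SE 0.078), Mmp2, a gelatinase, −0.64 (SE 0.26), and Mmp14, its membrane-bound activator, −0.37 (SE 0.20). The median of this list was −0.29 and became −0.078 without wild-type library 0, where Mmp2 was −0.29 and Mmp14 −0.078. Of 10 regulators of collagen genes, 7 were below 0, with a median of −0.14, and 2 were lower at an unadjusted p under 0.05. These were the transcription factors Scx (−0.98, SE 0.38), on 7 to 36 fragments a library, and Creb3l1 (−0.62, SE 0.27), on 12 to 25 fragments. Smad7, an inhibitor of TGF-beta signalling, had −0.20 (SE 0.099). Scx was −0.64 without wild-type library 2, and Smad7 was −0.13 without wild-type library 1 or knockout library 1.

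**Figure D5:**
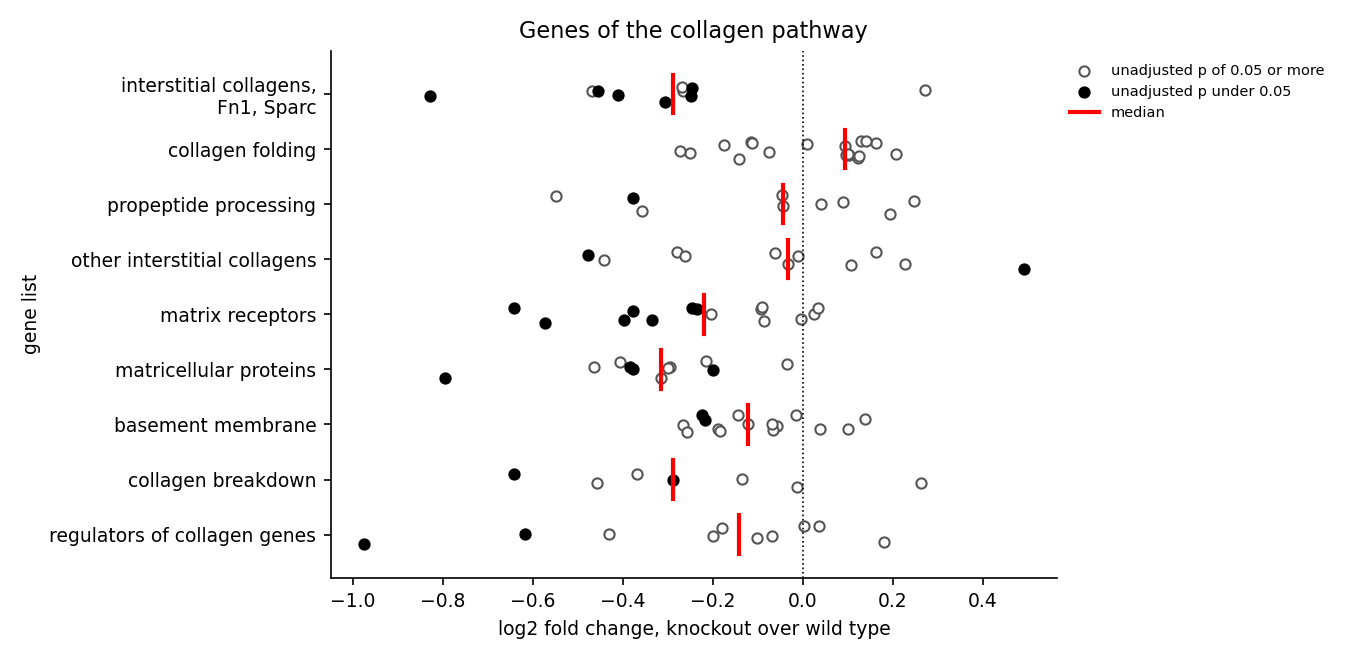
Log2 fold change of each tested gene by list, knockout over wild type, with filled points for an unadjusted p under 0.05 by edgeR and a red line at each median. The interstitial collagens, Fn1 and Sparc have a median of −0.29, and the folding genes one of 0.095.

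Genes other than the 10 were ranked by how like their pattern over the 6 libraries was to the mean profile of the 10. Gm numbers, Rik clones, Mir and Snor genes and merged names were left out. The 8 most alike were Dnajc30, Mitd1, Fcgbp, Ano5, Map3k1, Snapc3, Gas8 and Rgs5. Pearson's r was 0.96 to 0.97 over 6 libraries, among genes whose log2 CPM averaged at least 2. With wild-type library 0 left out, 2 of the 8, Snapc3 and Gas8, were again among the 50 most alike. Within groups, the coefficient of variation was larger in wild type for 8 of the 10 genes with all libraries and for 4 of 10 without wild-type library 0. Its median in wild type was 14.4%, with a range from 7.55% for Sparc to 53.1% for Col3a1, and 8.85% without that library. In knockout the median was 10.2%, with a range of 6.41% to 22.5%. Over tested genes whose log2 CPM averaged at least 2, the medians were 7.72% and 6.77%.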

How the data were processed

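Per the labels' protocols, flash-frozen kidneys gave stranded total RNA libraries depleted of ribosomal RNA. Cuffdiff, Cufflinks 2.2.1, SAMtools 1.2, Bowtie2 2.2.3, TopHat2 2.0.13, cutadapt 1.2.1 and the mm10 build are listed in the submitters' processing notes without roles. As to gene models and strand setting, these are not given in the sources used. The authors deposited estimated counts of fragments per gene in every library (not whole in 312 genes) and FPKM values. They also deposited a comparison table with a log2 fold change, a p-value and a q-value.

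After rounding, estimated counts passed filterByExpr and TMM scaling, and all genes were tested with edgeR 4.0.16 in R 4.3.3 (quasi-likelihood test, two-sided, no covariates, Benjamini-Hochberg threshold 0.05). FPKM ratios were tested by exact permutation in SciPy 1.17.1. The steps were tested on simulated data in which 200 genes changed by larger folds than the 10 genes here and no library stood apart. Those tests do not cover changes of the size reported here. Counting error limits genes with few fragments most. The 10 genes and the lists were chosen with earlier results of these data known. Named are all 10 genes, the 3 genes of each list with the smallest p, and the 8 genes most alike in pattern. Marker genes were named to describe a library that stands apart.

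Alternatives were other scalings and filters, DESeq2 1.42.0, limma 3.58.1 (voom, with and without library weights, and log2(FPKM + 1) or + 0.1) and leaving out each library. Removal of a trend on transcript GC and length was chosen after seeing the data. It used the 93.7% of tested genes with a known transcript.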

Additional observations from a re-analysis of the deposited data

How the results depend on the processing

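Each of the 10 genes was refitted under 17 alternatives, 170 values in all, of which 2 changed sign, both of Col3a1, and 0 passed the adjusted threshold (adjusted p 0.377 to 0.998). The log2 fold change of Col3a1 was 0.14 after removal of a trend on transcript GC and length without wild-type library 0, and it ranged from −0.71 to 0.062 with 1 library left out. The number of genes lower without overlap was 5 and became 3 on log2(FPKM + 1), 3 on log2(FPKM + 0.1), 3 after removal of the trend on GC and length, and 3 after that removal without wild-type library 0; the cause was not tested. With 1 library left out the number lower without overlap ranged from 5 to 7, and the number higher without overlap from 0 to 1. Without wild-type library 0, 15.4% of tested genes were lower without overlap and 14.2% higher, against 6.96% and 7.12% with all 6 libraries. The share of tested genes was not counted for the other settings, so the counts under those settings cannot be read as a change. The median log2 fold change ranged from −0.42, without knockout library 0, to −0.24 with 1 library left out. The median was −0.25 after removal of the trend and −0.15 after that removal without wild-type library 0. The same removal gave list medians of −0.14 for receptors, −0.053 for basement membrane and −0.084 for regulators of collagen genes. Of 72 ratio values, 2 changed sign: the log2 difference of Col3a1 over Col4a1 ranged from −0.58 to 0.054 (without wild-type library 0) with 1 library left out, and that of Col6a3 over Col6a1 from −0.20 to 0.071 (without wild-type library 2). No paired analysis was possible because the library numbers match no sample label and pair no mice. Depth limits Col1a1 most among the 10 genes.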
